A study of Mus musculus with 4 samples.

Results

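This section concerns 47 lentiviral lineage barcodes of the mouse mammary tumor line PB3 that were found in untreated cells and in no eribulin-treated cell of the same protocol. They were 47 of 490 barcodes seen in the study. A barcode was a member if it was called in at least 10 untreated multiome cells and in 0 eribulin multiome cells, and if more of its untreated multiome cells lay in chromatin cluster 2 or cluster 4 than in any other cluster. All 47 members had cluster 2 as this home cluster and none had cluster 4, so they are called lost lineages of cluster 2 here, where lost means only that no eribulin multiome cell was called with the barcode. The counts in both multiome libraries and the clusters of the untreated cells chose the members, and these values are therefore given as a description.

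The eribulin cells had received 500 nM eribulin for 72 h and 48 h of recovery, repeated for 4 rounds in all, and the untreated cells had received no drug. Chromatin accessibility was profiled in both with a multiome assay on nuclei, of which only the ATAC side is used and whose cells chose the members, and by single-cell ATAC-seq (scATAC). Each of these 4 groups was 1 library. The multiome libraries held 8114 eribulin and 9583 untreated cells with 49446970 and 61629245 cut sites in peaks, and the scATAC libraries held 16724 eribulin and 9361 untreated cells with 127710435 and 84615925 cut sites. A single barcode was called in 1391 eribulin multiome cells (17.1%) and in 4772 untreated multiome cells (49.8%), but in only 84 eribulin and 29 untreated scATAC cells. The eribulin and untreated multiome libraries had 123 cell barcodes in common. Those of 21 member cells also occurred in the eribulin library, where 0 of the 21 cells with these cell barcodes lay in clusters 2 or 4. With 1 library per group there is no spread between replicates and no test of treatment. Intervals are exact 95% binomial (Clopper-Pearson) intervals, which cover counting error only, and cells of the same barcode are not independent. Whether the treated and untreated cultures came from the same barcoded population, and how many lineages each was founded with, is not stated in the labels. Marker genes of the line were not checked, since values of single genes were not analysed here.

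In lineage barcoding, a lentivirus inserts a short designed sequence into the genome of a cell, and all descendants inherit it. Cells with the same barcode therefore belong to a clone, and counting barcodes before and after a drug shows which clones are still found. Eribulin blocks the growth of microtubules and thereby arrests dividing cells in mitosis. ATAC-seq uses the transposase Tn5, which inserts into open chromatin, and clusters group cells of like accessibility.

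Each barcode was 48 bases long and consisted of a short part of 14 bases, a linker at bases 15 to 18 counted from the first base, and a long part of 30 bases. A barcode is named by the numbers of its short and its long part. The 6 members with the most untreated cells are shown from the first base on, with the short part in capitals.
22-18173: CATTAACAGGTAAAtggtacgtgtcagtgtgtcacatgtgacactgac
71-53519: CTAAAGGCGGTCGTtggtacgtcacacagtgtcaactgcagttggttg
53-85524: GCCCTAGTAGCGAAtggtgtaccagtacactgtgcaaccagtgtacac
28-22697: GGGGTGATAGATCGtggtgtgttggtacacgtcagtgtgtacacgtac
40-47831: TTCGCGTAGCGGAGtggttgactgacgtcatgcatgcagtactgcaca
47-43673: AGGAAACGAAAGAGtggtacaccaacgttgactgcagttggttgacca
The members carried 36 different short parts and 47 different long parts. A short part was shared by 19 members, in 5 pairs and in 3 sets of 3. The 3 sets of 3 are those of the short parts 40, 51 and 71, and their further members are shown because only the lower-case letters tell them apart.
40-8290: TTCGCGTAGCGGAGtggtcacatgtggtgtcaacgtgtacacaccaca
40-97696: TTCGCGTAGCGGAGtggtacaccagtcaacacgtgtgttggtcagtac
51-85760: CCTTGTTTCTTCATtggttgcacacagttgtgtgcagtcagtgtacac
51-57144: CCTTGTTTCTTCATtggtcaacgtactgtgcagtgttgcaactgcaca
51-34334: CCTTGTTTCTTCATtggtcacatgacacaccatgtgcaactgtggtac
71-94367: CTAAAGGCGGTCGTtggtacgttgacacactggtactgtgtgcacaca
71-49263: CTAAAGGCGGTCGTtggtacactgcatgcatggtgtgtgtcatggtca
The long parts kept the members well apart. Among all 1081 pairs of members, the long parts differed at 12 or more of their 30 bases (median 22). A member's long part differed at 8 or more bases from that of any other barcode outside the set among the 490 seen. The content of G and C in the long part was 50.0% in each of the 490 barcodes, members included. Of the 36 short parts of the members, 10 were also found in called eribulin multiome cells, joined to other long parts.

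The lost lineages of cluster 2 made up a large share of the untreated population. Together they had 0 of the 1391 called eribulin multiome cells, a count whose limit (3 counts) is a share of 0.216%, and 1248 of the 4772 called untreated multiome cells (26.2%, 24.9 to 27.4). At an unchanged share, 364 eribulin cells would have carried a member barcode. The sizes of the lineages were uneven. Their untreated cell numbers ran from 10 to 98 with a median of 20, and the 10 largest members held 572 of the 1248 cells (45.8%).

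Barcode 22-18173 was the largest member, with 0 eribulin and 98 untreated multiome cells (2.05% of the called cells, 1.67 to 2.50). The limit of 0.216% places its eribulin share at least 9.52-fold lower. Barcode 71-53519 had 0 eribulin and 72 untreated cells (1.51%), a share at least 7.0-fold lower after eribulin. These bounds leave out the counting error of the untreated share itself. Barcode 53-85524 had 61 untreated cells, 28-22697 had 60, 40-47831 had 58 and 47-43673 had 57. For these 4 barcodes the eribulin share was at least 5.54-fold to 5.93-fold lower. The next 6 by size were 4-15682 with 49 untreated cells, 2-62822 with 48, 40-8290 with 35, 71-94367 with 34, 51-85760 with 30 and 40-97696 with 29. The bound for the last of them was 2.82-fold, so it narrowed quickly with lineage size.

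The smaller members came close to this limit. The lower bound of the untreated share lay above the limit of 0.216% in 30 of the 47 members, down to lineages of 19 cells. In the other 17, with 10 to 17 untreated cells, it did not, and a lower share after eribulin was not detectable by this comparison of bounds. At an unchanged share each of these 17 would have had between 2.91 and 4.96 eribulin cells. The limit of 3 counts is looser than the upper end of the exact 95% interval of 0 counts, which was 0.265%. With that value as the limit, 22 of the 47 members had a lower bound above it. At the edge of the rule, barcodes 51-34334 and 89-21218 had exactly 10 untreated cells, and 4 barcodes based in cluster 2 with no eribulin cell (21-11630, 38-38303, 75-7875 and 95-37226) had 9 cells and were left out. Barcodes 5-59042 and 52-59099, with 0 eribulin cells and 11 and 18 untreated cells, had 1 cell fewer in cluster 2 than in their home clusters 6 and 3. On the eribulin side, 37-24227 was left out with 1 eribulin and 18 untreated cells.

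Loss was the common outcome in the whole library, whatever the home cluster. No eribulin multiome cell was called for 107 (85.6%) of the 125 barcodes that reached 10 cells in the untreated library. Of these 125 barcodes, 56 were based in cluster 2, of which the 47 members (83.9%) had none, and 69 were based in other clusters, of which 60 (87%) had none. The stricter count, in which the lower bound of the untreated share also lay above the limit, gave 30 of the 56 barcodes based in cluster 2 (53.6%), 29 of the 69 based elsewhere (42%) and 59 of all 125 (47.2%). Because the rule used these counts, no test of the difference was made.

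How far the zero counts go beyond counting error depended on the few barcodes that filled the eribulin library. If every barcode had kept its untreated share, counting error alone (Poisson) would have left 0.548 of the 56 barcodes based in cluster 2 at 0 on average, against the 47 observed. However, the 5 most frequent eribulin barcodes held 1244 of the 1391 called eribulin cells (89.4%) and 79 of the 4772 called untreated cells (1.66%), and their gain lowers the share of every other barcode. With these 5 left out of both libraries, a choice made after the data were seen, 147 eribulin and 4693 untreated cells remained. On this basis 26.1 of the remaining 55 barcodes based in cluster 2 would be at 0 by counting error alone and 47 were. For barcodes based elsewhere the numbers were 32.9 and 60 of 67. The members together had 0 of these 147 eribulin cells, with a limit of 2.04%, and 26.6% (25.3 to 27.9) of the untreated ones. No single member, not even 22-18173, then had a lower bound above the limit. The 147 eribulin cells still included 103 cells of barcodes with under 10 untreated cells.

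The names of barcodes took different forms in the eribulin library, and the members had to be absent from both. The 1019 eribulin cells named with hyphens carried 22 barcodes, and the 372 named with a sequence carried 11, each of those found in sequence names alone having at least 9 cells. Members had 0 cells in both forms, with limits of 0.294% and 0.806%. How the names with a sequence were called is not stated, and with so few barcodes among them it is not known whether a member could have been called there. If it could not, the limit of 0.806% has no meaning and that of 0.294% takes the place of 0.216%, which left 21 members with a lower bound above it. Barcodes 55-37135 and 55-99383, based in cluster 2 with 11 and 12 eribulin cells and 57 and 36 untreated cells, were found in sequence names alone and would have counted as lost by the hyphen names.

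The scATAC libraries, which played no part in choosing the members, held few called cells of these lineages. Members were called in 0 of 84 eribulin scATAC cells (limit 3.57%) and in 2 of 29 untreated scATAC cells (6.90%, 0.846 to 22.8). The interval of the untreated share includes the eribulin limit, so a difference was not detectable at this depth. The untreated cells were a cell of 47-43673, which lay in cluster 6, and a cell of 81-1900, which lay in cluster 4. Cluster 4 held 31.2% of all untreated scATAC cells and cluster 2 held 1.35%, whereas 50 of the 57 multiome cells of 47-43673 and 14 of the 16 of 81-1900 lay in cluster 2.

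In most lost lineages the greater part of the cells lay in the home cluster, but no lineage was pure. Purity, the share of a member's untreated multiome cells in cluster 2, had a median of 72.9% over the 47 members (quartiles 65.9% and 81.1%), where cluster 2 held 34.6% of the library. It was highest in 71-53519, with 66 of 72 cells (91.7%, 82.7 to 96.9), and reached the same value in the smaller 51-57144 and 86-99862, with 24 and 12 cells. Among members of at least 20 cells it was lowest in 95-81257, with 12 of 24 cells (50.0%, 29.1 to 70.9). In 16 members at least 80% of the cells lay in cluster 2, and in 43 over 50% did. The other 4 were 95-81257, 61-75397 and 80-5930 at 50.0% and 34-58694 at 47.1%. The home cluster was chosen on these same cells, so the purity of every member is a description and is no test against the library. Across the 47 members, which all come from the same library, purity and size had a Spearman rho of 0.31 (Pearson r = 0.30), given as a description.

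The purity of members with the same short part is given next, as a description. The 3 barcodes with short part 40 had 69.0%, 82.9% and 75.9% of their cells in cluster 2 (40-47831, 40-8290 and 40-97696). The 3 with short part 71 had 91.7%, 82.4% and 60% (71-53519, 71-94367 and 71-49263). The 3 with short part 51 had 80%, 91.7% and 80% (51-85760, 51-57144 and 51-34334). The intervals overlapped within the sets of short parts 40 and 51. In the set of short part 71 they overlapped except between 71-53519 (82.7 to 96.9) and 71-49263 (36.1 to 80.9).

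Outside cluster 2, the lost lineages were spread over the other untreated clusters. Of the 1248 member cells, 933 (74.8%) lay in cluster 2 and 315 (25.2%) elsewhere. Cluster 3 came second with 93 cells, followed by cluster 6 with 59, cluster 9 with 55, cluster 8 with 46, cluster 4 with 25 and cluster 14 with 23. Among member cells outside cluster 2, cluster 3 held 29.5% (24.5 to 34.9), against 30.3% (28.6 to 32.0) of the other called cells outside cluster 2. Cluster 6 held 18.7% (14.6 to 23.5) of them against 23.4% (21.9 to 25.1), and cluster 9 held 17.5% (13.4 to 22.1) against 14.7% (13.4 to 16.1). These intervals overlapped, as did those of clusters 8 and 14. The other called cells included cells lying in their own home cluster, whereas all these member cells lay outside theirs, so the comparison is between unlike sets. The other called cells set beside cluster 4 below were of the same kind.

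Cluster 4 was the exception. It held 25 of the 315 member cells outside cluster 2 (7.94%, 5.20 to 11.5), 9 of the 76 such cells of the 9 cluster 2 lineages that kept an eribulin cell (11.8%, 5.56 to 21.3), and 16 of the 2659 other called cells outside cluster 2 (0.602%, 0.344 to 0.975). The intervals of the lost and the kept lineages of cluster 2 overlapped, and both lay above that of the other cells. In the untreated multiome library 0.960% of all cells lay in cluster 4. Members had 25 of its 50 called cells. The 25 cells came from 17 members: 40-47831 had 3 of them, 6 members had 2 each and 10 had 1 each. They were deep cells, with a median of 8655 cut sites, against 6461 in the other 25 called cells of cluster 4 and 5373 in member cells of cluster 2. The clusters were drawn on these cells, so the pairing of clusters 2 and 4 is a description, and the part of depth in it was not tested.

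By lineage, the second most frequent cluster was cluster 3 in 26 of the 47 members (lowest number where tied, as in 18 members). It was cluster 6 in 8 members, cluster 4 in 5, cluster 9 in 4, cluster 8 in 3 and cluster 14 in 1. The second cluster held a median of 10.0% of a lineage's cells (3.51% to 26.3%). In 20-92761 it was cluster 8 with 5 of 19 cells (26.3%), the largest second share, and in 95-81257 it was cluster 3 with 6 of 24 cells (25%). Barcode 90-13082 had 4 of its 23 cells in cluster 9, and 71-53519 had only 3 of 72 in cluster 14. A member occupied between 2 and 8 clusters. The widest spread was that of 40-47831, whose 58 cells lay in 8 clusters.

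The clusters with a larger eribulin share held few untreated cells of lost lineages. They were chosen for a smaller share of the untreated than of the eribulin library, so a low number there is a description. Of all untreated multiome cells, 0.428% lay in cluster 0 and 1.11% in cluster 15, and 0 lay in clusters 1, 5 and 7. Of the 1248 member cells, 12 (0.962%, 0.498 to 1.67) lay in the 9 clusters that held a larger share of the eribulin than of the untreated multiome library, 10 of them in cluster 15. The lost barcodes based elsewhere had 42 of 1800 cells there (2.33%, 1.69 to 3.14), and the cluster 2 lineages that kept an eribulin cell had 4 of 349 (1.15%, 0.313 to 2.91). Without cluster 15, which has cells of both treatments, the numbers were 2 of 1248 for members (0.160%, 0.019 to 0.578), 12 of 1800 for lost barcodes based elsewhere (0.667%, 0.345 to 1.16) and 3 of 349 for the kept lineages (0.860%, 0.178 to 2.49). These last 3 intervals overlap.

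Seen from the cluster, lost lineages supplied most of the cells in cluster 2 whose lineage is known. Of its 1722 called cells, 933 (54.2%, 51.8 to 56.6) carried a member barcode. The 9 cluster 2 lineages that kept an eribulin cell had 273 (15.9%), barcodes based elsewhere had 194 (11.3%) and barcodes with under 10 untreated cells had 322 (18.7%). Within the cluster the cells of lost lineages lay close to even mixing. Among the 10 nearest called cells on the deposited UMAP, counted in cluster 2 alone, 2.03% shared the barcode of a member cell, where even mixing gives 1.82%. With 5 neighbours the share was 2.47%, and with 20 it was 2.03%. With 10 neighbours in cluster 2 it was 3.63% against 2.32% for the kept lineages and 0.359% against 0.205% for the lost barcodes based elsewhere, ratios of 1.57 and 1.75 where the members had 1.11. The order of members and kept lineages depended on the number of neighbours. With 5, the kept lineages had 2.78% against 2.32%, a smaller ratio than the 1.36 of the members. With 20, the ratios were 1.44 for the kept lineages and 1.12 for the members. Those of the lost barcodes based elsewhere were the highest each time, but rest on 167 cells with few such neighbours. Over the whole library, with 10 neighbours, the share was 1.27% against 0.808% for members, but 5.76% against 1.26% for the lost barcodes based elsewhere. Even mixing over the whole library takes no account of home clusters. Cluster 2 was the largest, with 1722 called cells against 921 in cluster 3, and the part of cluster size in this difference was not tested. Of the 17 members with at least 20 cells in cluster 2, 7 lay above even mixing. The highest was 18-99249, with 4.00% against 1.104% over 20 cells, and in 11-12158 none of the neighbours of its 20 cells carried its barcode. Barcode 40-47831 had 4.50% against 2.27% over 40 cells, and the largest member, 22-18173, had 4.10% against 4.47% over 78 cells.

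The depth of the lost lineages was close to that of other called cells. Member cells had a median of 5504 cut sites in peaks (quartiles 3769 and 8518), against 5538 in the kept lineages of cluster 2, 5275 in lost barcodes based elsewhere and 5427 in all called untreated multiome cells. Called cells were deeper than the 3890 cells without a barcode, whose median was 4741. Among members of at least 20 cells the median ran from 4148 in 40-47831 to 7437 in 18-99249. The difference between lineages was small beside that between cells: 2.01% of the variance of log2 cut sites among member cells lay between barcodes. The share of member cells in cluster 2 was 72.2% (68.6 to 75.5) of the 676 cells at or above the library's median depth and 77.8% (74.2 to 81.1) of the 572 cells below it, and these intervals overlapped. With the member cells split at their quartiles of depth it was, from low to high, 75.9%, 80.2%, 75% and 67.9%. These shares did not fall steadily, but the deepest cells had the lowest (62.5 to 73.1). That interval lay below the interval of the 80.2% (75.3 to 84.5) and overlapped the rest. Member cells outside cluster 2 had a median of 6076 cut sites, against 5373 inside it. In the whole untreated multiome library the share of cells in cluster 2 was 35.9% at or above the median depth and 33.2% below it.

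The nucleosome signal of the lost lineages was close to that of cluster 2 as a whole (median 0.983). This ratio compares fragments as long as a nucleosome with shorter, nucleosome-free fragments, so that a high value means that more of the DNA recovered was nucleosome-bound. Its median was 0.963 over member cells (quartiles 0.867 and 1.06), against 0.960 in the kept lineages of cluster 2 and 0.875 in lost barcodes based elsewhere. The member cells in cluster 2 had a median of 0.983 and those outside it 0.884. Cells of barcodes based elsewhere showed the same split, with 0.958 for their 194 cells in cluster 2, and 0.870 for the cells of the lost ones outside it.

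The difference was also seen within single lost lineages. In 33 members with at least 5 cells in cluster 2 and at least 5 outside it, the median signal was higher in cluster 2 in 31 and lower in 2, with a median difference of 0.11 (from -0.042 to 0.23). In 22-18173 it was 1.00 over 78 cells in cluster 2 and 0.884 over 20 cells elsewhere. In 71-53519 it was 0.983 over 66 cells and 0.817 over 6, and in 79-71996, the largest difference, 0.961 over 21 cells and 0.735 over 5. The 2 exceptions were 51-85760, with 0.906 and 0.948, and 97-81505, with 0.894 and 0.930. Cells in cluster 2 were also shallower than the lineage's other cells in 20 of the 33 members, and the part of depth in the difference was not tested. Within the shared range of cut sites of both multiome libraries the median over member cells was 0.964.

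Between lost lineages the signal varied little. Among members of at least 20 cells the median ran from 0.894 in 40-47831 (quartiles 0.845 and 0.975 over 58 cells) to 1.02 in 71-94367 (0.974 and 1.06 over 34 cells). The quartile ranges of even these 2 barcodes touched, and 0.982% of the variance of the signal among member cells lay between barcodes. The medians of the 9 kept lineages, taken without a minimum of 20 cells, ran from 0.919 in 13-72181 to 1.13 in 54-69483, which had 12 cells. They overlapped the range of all members of any size, from 0.854 to 1.03. TSS enrichment, which measures how strongly the cuts gather at gene starts, had a median of 4.99 in member cells, 4.94 in the kept lineages and 5.04 in lost barcodes based elsewhere.

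The lost lineages were set against the 9 lineages with the same home cluster that were found after eribulin. These 9 had 116 eribulin cells (8.34% of the called cells, 6.94 to 9.92) and 349 untreated cells (7.31%, 6.59 to 8.09), and 81 of the 116 eribulin cells belonged to 39-41529. Without the 5 most frequent eribulin barcodes, of which 39-41529 is one, the remaining 8 had 35 of 147 eribulin cells (23.8%, 17.2 to 31.5) and 309 of 4693 untreated cells (6.58%, 5.89 to 7.33). Being found after eribulin defined the kept lineages, so the choice itself raises their eribulin share, which is a description. With the members counted in, barcodes based in cluster 2 went the other way on this basis. Their untreated share was 33.2% (31.8 to 34.5) and their eribulin share was the same 23.8%. The share of barcodes based elsewhere was also lower after eribulin on this basis. They had 43.0% (41.5 to 44.4) of the untreated cells and 6.12% (2.84 to 11.3) of the eribulin cells. Among the kept lineages of cluster 2, 55-99383 had 12 eribulin cells, 55-37135 had 11 and 75-79440 had 3. Barcodes 95-65716, 13-72181, 1-96229 and 54-69483 had 2 each, and 37-24227 had 1. The members had between 10 and 98 untreated cells with a median of 20, against 12 to 83 with a median of 36 in the 9 kept lineages. Purity ran from 47.1% to 91.7% with a median of 72.9% in the members, and from 61.1% to 85.0% with a median of 78.6% in the kept lineages. The ranges of lineage size and purity thus overlapped, and so did those of the lineages' median cut sites, which were 3795 to 7985 in the members and 4063 to 6667 in the kept lineages. The largest lost lineage, 22-18173, had 0 eribulin and 98 untreated cells (78 of the 98 in cluster 2), and the largest kept one, 95-65716, had 2 eribulin and 83 untreated cells (66 of the 83 in cluster 2).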

How the data were processed

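Chromatin accessibility of single PB3 cells was deposited by the authors as a table of cells with their metadata, UMAP positions and a list that holds 10000000 lentiviral barcodes. Per the series' design text, peak matrices came from cellranger-atac 1.2.0 and cellranger-arc 1.0.0 on mm10 and were analysed with Signac 1.1.1. Integration and barcode calling are not given in the sources used here. The deposited counts are whole numbers of cut sites and peaks per cell. The deposited nucleosome signal and TSS enrichment are ratios within a cell, and UMAP positions, as deposited, are a unitless score.

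Barcode names, which differ in form between libraries, were unified through their short and long part numbers. All 490 barcodes were in the list, and 372 of 372 sequences in cell names matched it. Negative, doublet, multiplet and unmapped cells were left out of barcode shares (669 untreated and 56 eribulin multiome cells were doublets). Shares, medians, exact intervals and UMAP neighbours were computed with Python 3.11.15, pandas 2.3.3, numpy 2.4.6 and scipy 1.17.1, and the rule and the neighbour count were tested on simulated data. No test was made, since each group is 1 library. Where 0 cells were counted, the limit printed is 3 counts. The members and the sets compared were chosen with earlier results of these data known. Named are the 12 largest members, the extremes among members of at least 20 cells, those found in scATAC and the barcodes just outside the rule. Barcodes 51-57144, 86-99862, 61-75397, 80-5930, 34-58694, 20-92761, 90-13082, 79-71996, 97-81505 and 11-12158 were named after their values were seen. Of the members that share a short part, sequences are given for the sets of 3 alone.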

Additional observations from a re-analysis of the deposited data

How the results depend on the processing

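Over 7 results, 20 of 30 alternatives left the value within its counting interval or, for counts, within 1.5 times. Some of the 20 could not have come out otherwise. The rule fixes the summed member share after eribulin at 0 in either form of name, and cluster 2 alone gives the same 47 members because none is based in cluster 4. The number of members was 81 with a minimum of 5 untreated cells and 27 with a minimum of 20, which gave 30.8% and 20.3% of the called untreated cells, and 13.0% of all untreated cells with the minimum of 10. The number of members whose loss exceeds counting error was 18 in the shared range of 1786 to 15368 cut sites, 21 with eribulin cells named with hyphens, and 0 without the 5 most frequent eribulin barcodes (chosen after seeing the data), which leaves 147 eribulin cells. The median purity was 66.7% among cells with at least the library's median of cut sites. The mean of cut sites over member cells was 6789, and the median nucleosome signal in the home cluster alone was 0.983. No paired analysis was possible because each group is 1 library without a replicate number. Depth also limits the loss. With 1391 called eribulin multiome cells, the lower bound did not clear the limit of 3 counts in members with 17 or fewer untreated cells. With 84 called eribulin scATAC cells the limit was 3.57%, above the untreated multiome share of even the largest member (2.05%).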

Other observations

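Most called eribulin cells in clusters 2 and 4 carried barcodes of other lineages with cluster 2 as home cluster. Of the 8114 eribulin multiome cells, 43 lay in clusters 2 and 4, and a barcode was called in 14 of them. Of these 14, 12 carried a barcode based in cluster 2 that kept an eribulin cell, and 0 carried a member barcode. The 8 such barcodes outside the 5 most frequent ones had 11 of their 35 eribulin cells in clusters 2 and 4 (31.4%, 16.9 to 49.3). Of these cells, 4 in cluster 2 were of 55-99383, and 2 in cluster 2 and 1 in cluster 4 were of 55-37135. Barcode 39-41529, also based in cluster 2 but among the 5 most frequent, had 1 of its 81 eribulin cells there. All 9 such barcodes thus had 12 of their 116 eribulin cells there. The 5 most frequent barcodes had 1 of 1244 cells there (0.080%, 0.002 to 0.447), and all other called eribulin cells 2 of 112 (1.79%, 0.217 to 6.30). The nucleosome signal of these 11 cells had a median of 0.654 (from 0.579 to 0.936), against 0.659 in the 24 eribulin cells of the same 8 barcodes elsewhere and 0.983 in untreated cells of cluster 2.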
